A study of Mus musculus with 6 samples.

Results

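The genes of the proteasome were followed in the livers of fasted mice with and without CREBH, a membrane-bound transcription factor of hepatocytes encoded by Creb3l3. They were picked by a rule on names, as the protein-coding genes of the annotation whose symbols run from Psma to Psmg followed by a number. Earlier results of these data were known when the rule was chosen. The rule found 50 genes among 55536 gene identifiers, of which 22028 are annotated as protein-coding. One of them, Psmc3ip, shares the name only and encodes a meiotic recombination factor, which leaves 49 proteasome genes. By role these are 8 alpha and 7 beta genes of the core particle, 3 immunoproteasome genes, 1 beta gene of the thymus, 6 ATPases, 11 non-ATPase subunits of the regulatory particle, 6 genes of other activators and an inhibitor, and 7 assembly factors.

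The groups were wild-type mice (WT) and CREBH-KO mice, with 3 liver libraries each, all taken after a fast of 14 h. The labels do not name the strain, the sex, the age or the part of Creb3l3 that is deleted, and no fed mice were compared here. They describe the samples of a group as independent but do not state that they are separate mice, so p-values measure the spread between these samples, which may be technical. For CREBH-KO 2 and CREBH-KO 3 the labels record the loss of the first-read file. Calls among members, partners and antigen presentation genes are also given without both of these libraries. For the markers of cell types no such values are given.

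Proteasomes degrade proteins that carry ubiquitin chains. The core particle is a barrel of stacked rings, in which the outer alpha rings gate the entry and the inner beta rings hold the proteolytic sites. The regulatory particle binds ubiquitin chains, removes them and feeds the unfolded protein into the core through a ring of ATPases. Psmb5, Psmb6 and Psmb7 carry the chymotrypsin-like, caspase-like and trypsin-like sites. Interferon induces Psmb8, Psmb9 and Psmb10, which take the places of Psmb5, Psmb6 and Psmb7 in newly built immunoproteasomes and favour peptides for MHC class I molecules. In the liver, proteasomes turn over short-lived enzymes, transcription factors and proteins exported from the endoplasmic reticulum for destruction.

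Reads counted in genes numbered between 28106243 and 39288819 per library. Levels are CPM, that is, counts scaled to library sizes corrected for composition by TMM factors, and errors of levels are SD over 3 libraries. Changes are log2 fold changes of CREBH-KO against WT with their standard errors (SE), from edgeR's quasi-likelihood test over 15589 genes. Calls were made where p, adjusted over all these genes by the Benjamini-Hochberg method, was under 0.05. Creb3l3 (chr10:81084324-81098874 in GRCm38, minus strand) stood at 467, 496 and 495 CPM in WT 1, 2 and 3 and at 57.4, 45.0 and 46.4 CPM in CREBH-KO 1, 2 and 3. Every CREBH-KO library lay far below every WT library, in accordance with the labels (log2 fold change -3.29 ± 0.11 SE, adjusted p = 3.00e-06 in edgeR's quasi-likelihood test). The hepatocyte markers Alb, Apob, Ttr, Cps1 and Asgr1 were abundant in all 6 libraries, with Alb at 43457 to 57676 CPM. As the tissue was sequenced in bulk, fewer cells of a type and less RNA per cell cannot be told apart for any gene.

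Most of the proteasome stayed within a narrow range of its WT level. Of 48 genes with enough counts to test, 3 were called changed, which is 6.25% beside 10.4% of all genes tested. Psma4 rose, and Psmd9 and Psmb9 fell. By direction these are 1 of 48 higher, beside 3.91% of all genes, and 2 of 48 lower, beside 6.46%. At an unadjusted p under 0.05 stood 5 of the 48, beside 3926 of the 15589 genes tested. Log2 fold changes between -0.25 and 0.25 were found for 44 of the 48, or 91.7%, and for 53.7% of all genes. The 4 members outside this range were the 3 called genes and Psmb8. The 2 shares differ in precision, since the median SE was 0.08 for the 48 and 0.17 for all genes. How much of their difference comes from noise was not tested. The median change of the 48 was 0.02, and that of all genes was 0.02. Groups did not overlap for 9 members, or 18.8%, beside 30.6% of all genes. Psma4, Psmb6, Psmc1, Psmc5 and Psmd4 were higher in every CREBH-KO library, and Psmb7, Psmb9, Psmd9 and Psmf1 were lower. With CREBH-KO 1 as the only CREBH-KO library, 0 of the 48 were called by edgeR's quasi-likelihood test, and 1.34% of all genes were. The single library was then assumed to vary like the WT libraries.

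**Figure D1:**
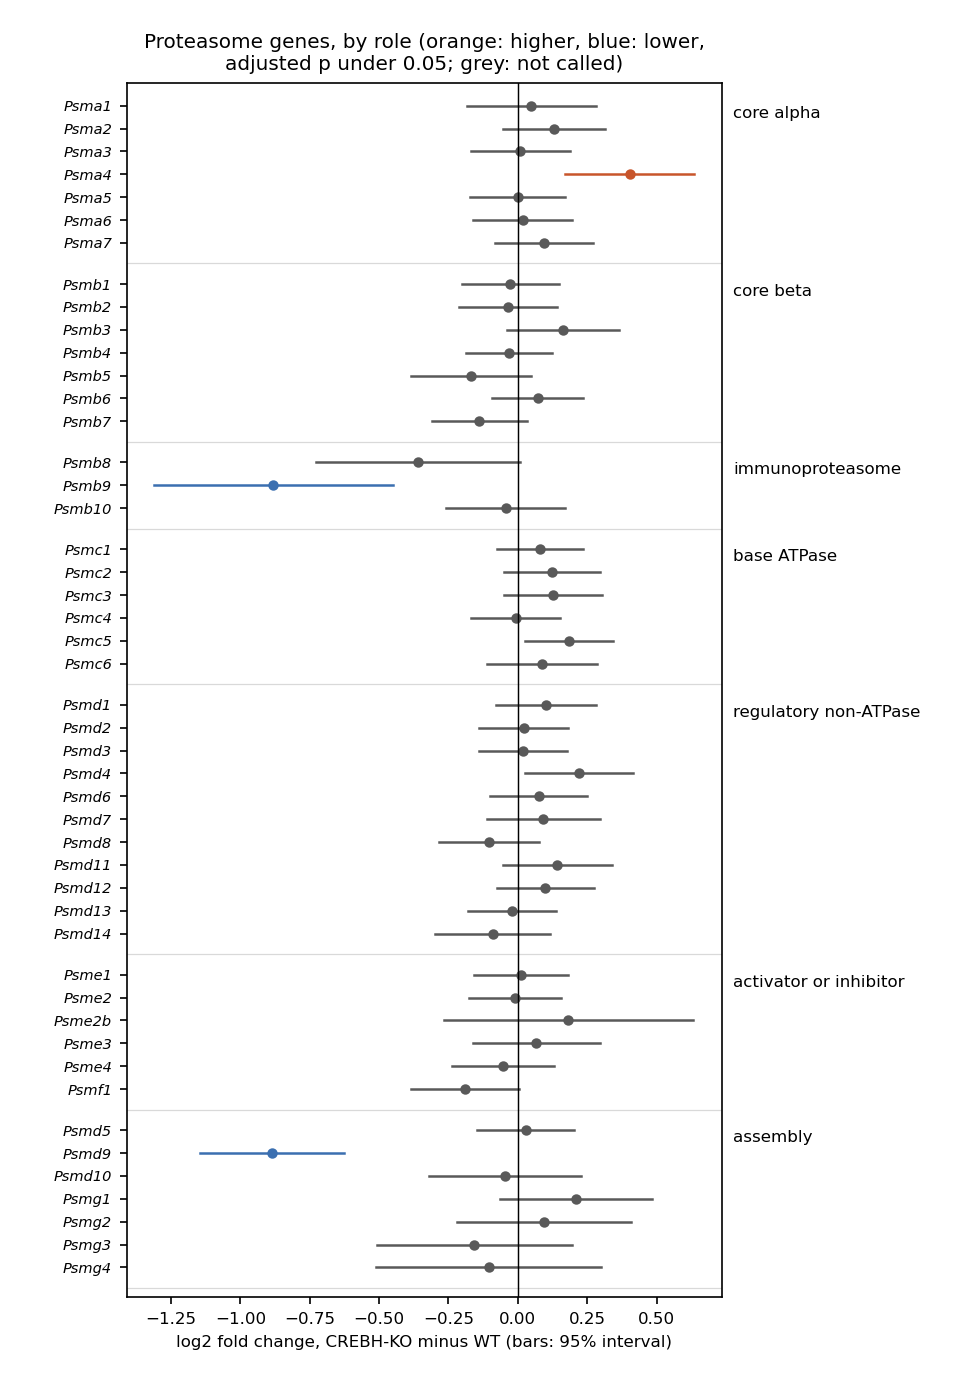
Log2 fold change of each tested proteasome gene, CREBH-KO against WT, by role, with the 95% interval as a bar; Psma8 is left out because its interval runs from -1.70 to 1.43. In the roles other than the immunoproteasome most points lie near 0, the 3 immunoproteasome genes run from -0.88 to -0.04, and the 3 coloured genes are Psma4, which was higher, and Psmb9 and Psmd9, which were lower.

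The subunits of the constitutive proteasome, which are the core, the ATPases and the non-ATPase subunits without the testis gene Psma8, moved little. Of these 31 genes, 1 was called and 30 were not, with 21 positive and 10 negative log2 fold changes and a median of 0.07. The 95% intervals of the 30 reach from -0.38 for Psmb5 to 0.42 for Psmd4, which corresponds to 0.766-fold and 1.33-fold of the WT level. Summed over the 31 genes, the level was 3417, 3209 and 3127 CPM in WT 1, 2 and 3 and 3431, 3396 and 3368 CPM in CREBH-KO 1, 2 and 3. The sums overlapped, since WT 1 exceeded CREBH-KO 2 and 3, and the means were 3251 ± 149 and 3399 ± 31.5 CPM. WT 1 was the highest WT library for 22 of the 31 genes, or 71.0%, beside 36.9% of all genes. Scaled by library size alone, the median of the 31 genes was 0.14 and that of all genes 0.10, so both shifted upwards together.

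Among the 8 alpha genes, 1 rose and 0 fell, and their median was 0.03. Psma4 (chr9:54950790-54958030, plus strand) encodes an alpha ring subunit whose tail helps to close the gate of the core. Its level was 125, 102 and 96.6 CPM in WT 1, 2 and 3 and 149, 143 and 136 CPM in CREBH-KO 1, 2 and 3. All CREBH-KO libraries lay above all WT libraries, and WT 1 came closest to them. Its mean went from 108 ± 14.9 to 143 ± 6.33 CPM (log2 fold change 0.40 ± 0.10 SE, adjusted p = 0.0388 in edgeR's quasi-likelihood test). The call held without WT 1 but was lost on leaving out any other single library, with log2 fold changes of 0.33 to 0.44 and adjusted p of 0.0851 to 0.155. Gm6542, a processed pseudogene that matches 66.9% of the Psma4 transcript, stayed between 0.907 and 1.84 CPM, so that the sum of both genes had a log2 ratio of 0.40 as well. The other alpha genes of the liver had log2 fold changes from near 0 for Psma5 to 0.13 for Psma2 and were not called. Psma8, an alpha gene of the testis, was scarce, with 77 counts summed over WT and 62 over CREBH-KO. It ranged from 0.188 to 1.55 CPM, both in WT.

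None of the 7 beta genes of the core was called by edgeR's quasi-likelihood test, and 0 of them had an unadjusted p under 0.05; DESeq2 and limma-voom called 0 as well. Their median was -0.03, and it was 0.04 with scaling by library size alone. Psmb6, with the caspase-like site, was at 131, 122 and 131 CPM in WT and 138, 132 and 134 CPM in CREBH-KO (log2 fold change 0.07 ± 0.07 SE, adjusted p = 0.583 in edgeR's quasi-likelihood test). Psmb7, with the trypsin-like site, was at 74.2, 74.3 and 67.1 CPM in WT and 65.0, 64.4 and 66.4 CPM in CREBH-KO (log2 fold change -0.14 ± 0.08 SE, adjusted p = 0.294 by the same edgeR test). In both genes the groups lay side by side without overlap. Psmb3, a beta subunit without a proteolytic site, had the highest value of the role at 0.16, and Psmb5 the lowest.

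Psmb5, which carries the chymotrypsin-like site, is encoded at chr14:54614119-54618022 on the minus strand. Its level was 63.2, 59.0 and 56.5 CPM in WT 1, 2 and 3 and 50.5, 59.7 and 49.0 CPM in CREBH-KO 1, 2 and 3. CREBH-KO 2 lay within the WT range and the other two CREBH-KO libraries lay below it (log2 fold change -0.17 ± 0.10 SE, adjusted p = 0.317 in edgeR's quasi-likelihood test). A second locus holds nearly the same sequence. Gm3375, an annotated processed pseudogene of Psmb5 at chr7:3181093-3181888 on the plus strand, matches 88.4% of the Psmb5 transcript, and it was singled out after its values were seen. In the alignment of the annotated transcripts, 787 of 795 bases are identical. All 8 differences lie within the 792 coding bases, and the transcripts differ by 1 gap besides. Counted from the A of the start codon and with the base of Psmb5 first, they are G6A, G106A, C297T, C306T, T387A, C417T, T465C and C660A. The stretch from coding position 263 to 322 shows how few bases can tell reads of both loci apart. Capitals mark the 2 differing bases.
Psmb5: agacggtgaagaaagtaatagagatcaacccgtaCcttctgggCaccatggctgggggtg
Gm3375: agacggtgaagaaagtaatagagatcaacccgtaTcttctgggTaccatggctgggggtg
Both are taken from the GENCODE M21 transcripts and are written 5′ to 3′.

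Counts assigned to Gm3375 were higher without CREBH in every library. They were 3.54, 3.00 and 2.93 CPM in WT 1, 2 and 3 and 12.3, 14.1 and 12.1 CPM in CREBH-KO 1, 2 and 3. The groups were far apart, and the ratio was 4.05-fold (log2 fold change 2.02 ± 0.15 SE, adjusted p = 1.19e-04 in edgeR's quasi-likelihood test). The call held under every setting tried, CREBH-KO 1 alone included, with log2 fold changes from 1.93 to 2.10. Summed over Psmb5 and Gm3375, the level was 62.7 ± 3.72 CPM in WT and 65.9 ± 6.94 CPM in CREBH-KO, a log2 ratio of 0.07 where Psmb5 alone had -0.17. How reads were shared between the loci was not tested. Altogether 10 members have copies elsewhere in the genome that match at least 20% of their transcript at 95% identity or more. They have 17 such copies, and of these Gm3375 alone was called. HTSeq's summary lists reads with several alignments apart from the gene counts, so the levels of these 10 members (Psma3, Psma4, Psma5, Psmb3, Psmb5, Psmc1, Psmd2, Psmd11, Psme2 and Psme2b) are uncertain.

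**Figure D2:**
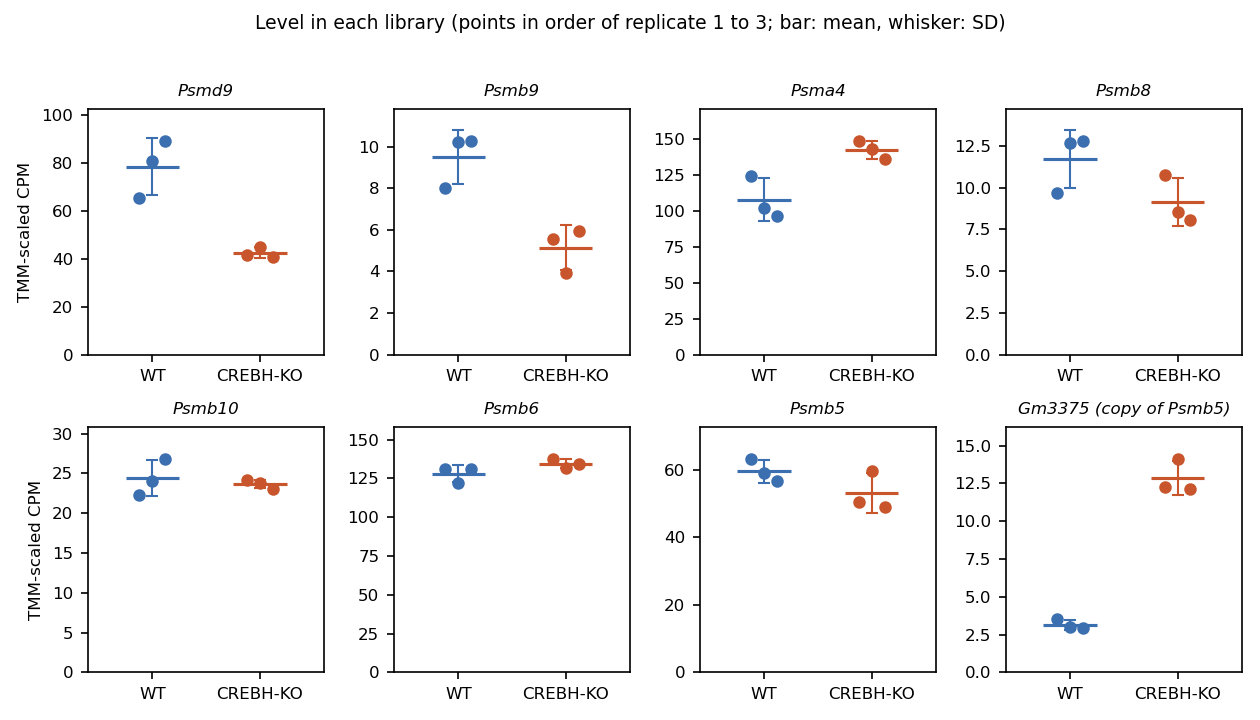
TMM-scaled CPM in each of the 3 WT and 3 CREBH-KO libraries for 7 proteasome genes and the Psmb5 pseudogene Gm3375, with a line at the mean and a whisker of 1 SD; every vertical axis starts at 0. Psmd9 and Psmb9 were lower and Psma4 and Gm3375 higher in every CREBH-KO library, whereas the points of Psmb8, Psmb10 and Psmb5 overlap.

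The regulatory particle held no called gene. Of the 6 ATPases, 0 were called by edgeR's quasi-likelihood test and 1, Psmc5, had an unadjusted p under 0.05. DESeq2 and limma-voom called 0 of the 6. Their log2 fold changes were positive in 5 of 6, with a median of 0.10. They ran from -0.01 for Psmc4 to 0.18 for Psmc5 (88.0, 86.2 and 84.4 CPM in WT against 101, 96.2 and 96.9 CPM in CREBH-KO, adjusted p = 0.136). The 2 groups of Psmc5 did not overlap. The 11 non-ATPase subunits likewise had 0 calls by this test, by DESeq2 and by limma-voom, and 1 unadjusted p under 0.05, that of Psmd4, a receptor for ubiquitin chains. Positive values were found for 8 of 11, with a median of 0.07 and a range from -0.11 for Psmd8 to 0.22 for Psmd4. The level of Psmd4 was 156, 136 and 130 CPM in WT and 163, 169 and 160 CPM in CREBH-KO (adjusted p = 0.149). WT 1 was close to the lowest CREBH-KO library, and the other WT libraries were clearly lower.

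Of the 3 immunoproteasome genes, 1 fell and 2 were not called, and the log2 fold changes of all 3 were negative. Psmb9, which replaces Psmb6, lies at chr17:34181987-34187764 on the minus strand, in the MHC region beside Tap1. Its level was 7.99, 10.2 and 10.3 CPM in WT 1, 2 and 3 and 5.56, 3.92 and 5.94 CPM in CREBH-KO 1, 2 and 3. Every CREBH-KO library lay below every WT library. The fall was from 9.50 ± 1.31 to 5.14 ± 1.07 CPM (log2 fold change -0.88 ± 0.19 SE, adjusted p = 0.0211 in edgeR's quasi-likelihood test). The call was lost without WT 2 (adjusted p = 0.0855), WT 3 (0.0598) or CREBH-KO 2 (0.0563), at log2 fold changes of -0.83, -0.82 and -0.72. It was also lost with CREBH-KO 1 as the only CREBH-KO library (-0.79, adjusted p = 0.191).

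Psmb8, which replaces Psmb5, lies at chr17:34197721-34201454 on the plus strand. It was at 9.70, 12.7 and 12.8 CPM in WT and at 10.8, 8.55 and 8.05 CPM in CREBH-KO. CREBH-KO 1 lay above WT 1, so the groups overlapped (log2 fold change -0.36 ± 0.16 SE, adjusted p = 0.208 in edgeR's quasi-likelihood test). Psmb10, which replaces Psmb7, lies at chr8:105935735-105938444 on the minus strand. It was at 22.3, 24.1 and 26.9 CPM in WT and at 24.1, 23.8 and 23.1 CPM in CREBH-KO (log2 fold change -0.04 ± 0.09 SE, adjusted p = 0.817 by the same edgeR test). Its CREBH-KO libraries fell within the WT range. Whether Psmb9 differed from Psmb8 and Psmb10 in its response was not tested.

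The sequence before the RefSeq start of Psmb9 is shown because this gene fell while its neighbour Psmb8 was not called. It is a window of 250 bases, chr17:34187331-34187580 on the minus strand (GRCm38.p6). The RefSeq start lies 434 bases inside the gene as GENCODE annotates it, so the whole window is within that gene and the sequence before the GENCODE start was not searched. Capitals mark the only match to a searched motif, a CCAAT box read on the opposite strand from 8 to 4 bases before the RefSeq start. The far end of the window overlaps the first exon of Tap1, which is transcribed the other way.
Psmb9 before the RefSeq start: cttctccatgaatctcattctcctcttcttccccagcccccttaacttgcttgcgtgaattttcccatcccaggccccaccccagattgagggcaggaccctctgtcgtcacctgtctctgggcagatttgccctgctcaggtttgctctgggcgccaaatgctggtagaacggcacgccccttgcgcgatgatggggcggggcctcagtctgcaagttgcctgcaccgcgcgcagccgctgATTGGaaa
No match to the interferon-stimulated response element core was found in this window. Of the exonic bases of Psmb9, 5.79% lie antisense to Tap1, and without a known strand setting reads of both genes cannot be told apart there.

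Immunoproteasome transcripts were scarce beside those of the constitutive beta genes. Per kilobase of the longest coding transcript, the WT mean was 7.03 CPM for Psmb9, 7.20 for Psmb8 and 18.6 for Psmb10, whereas the 7 constitutive beta genes ranged from 60.3 for Psmb1 to 160 for Psmb6. On this per-length scale Psmb9 stood at 3.59%, 4.96% and 4.63% of Psmb6 in WT 1, 2 and 3 and at 2.39%, 1.76% and 2.61% in CREBH-KO 1, 2 and 3. All CREBH-KO libraries lay below all WT libraries, with means of 4.40% ± 0.714 and 2.25% ± 0.440. The difference of the log2 ratios was -0.97 (exact two-sided permutation test, p = 0.10, the smallest that 3 against 3 libraries allow). Psmb8 relative to Psmb5 averaged 10.9% ± 2.17 in WT and 9.59% ± 1.99 in CREBH-KO (log2 difference -0.19, exact permutation p = 0.50). Psmb10 relative to Psmb7 averaged 30.2% ± 4.62 and 32.1% ± 1.16 (log2 difference 0.10, exact permutation p = 0.60). Over these 3 ratios, the Benjamini-Hochberg adjusted p of the exact tests were 0.30, 0.60 and 0.60. The per-length levels depend on the length used: over all annotated exonic bases, Psmb10 was at 68.6% of Psmb7 in WT and 72.8% in CREBH-KO, while the log2 differences between groups were the same. Psmb11, the beta gene of the thymus, had 0 counts in all 6 libraries, which allows a level of up to 0.0151 CPM over the 6 libraries together, counting error only.

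**Figure D3:**
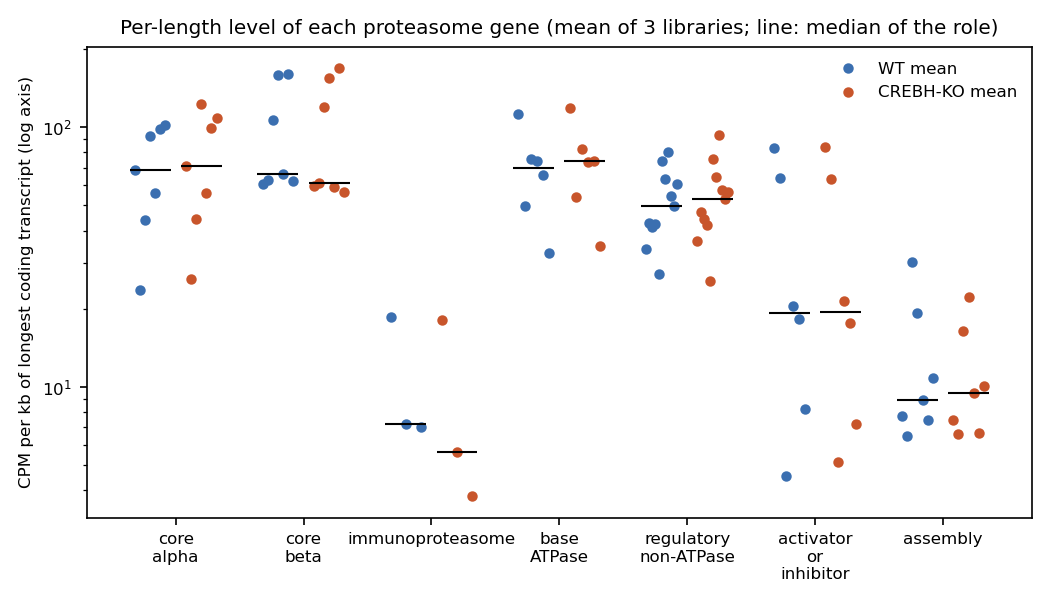
Mean level per kilobase of the longest coding transcript on a log axis, for each proteasome gene by role, WT and CREBH-KO side by side, with a line at the median of the role; Psma8 is left out. Core, ATPase and non-ATPase genes share one band, with WT medians of 49.7 to 69.8 CPM per kilobase, and the WT medians of the immunoproteasome and assembly genes are lower, at 7.20 and 8.92; the assembly gene Psmd9, at 30.3 in WT, lies above the core gene Psma2 at 23.7.

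Genes of MHC class I peptide presentation, which interferon induces together with the immunoproteasome, fell in part. Of 19 genes listed for antigen presentation, 0 rose and 4 fell (21.1% called, beside 10.4% of all genes), with a median of -0.18. As the list was chosen with earlier results of these data known, its share is a description only. H2-K1, a class I heavy chain, was at 1436, 1614 and 1652 CPM in WT and at 1109, 970.5 and 1090.3 CPM in CREBH-KO, without overlap (log2 fold change -0.57 ± 0.10 SE, adjusted p = 0.0072 in edgeR's quasi-likelihood test). H2-D1, the other heavy chain of the list, fell by 0.43 on the log2 scale (adjusted p = 0.0322). B2m, the light chain, fell by 0.41 (0.0446), and Nlrc5, the transactivator of class I genes, fell by 0.43 (0.0498). H2-K1 kept its call on leaving out any single library. H2-D1 kept it without WT 1 and without CREBH-KO 1 and lost it in the other 4 cases, at adjusted p of 0.0878 to 0.124 in edgeR's quasi-likelihood test. B2m lost it without any library but WT 3, and Nlrc5 without any but CREBH-KO 1, with adjusted p of up to 0.139 and 0.173. Tap1, a subunit of the peptide transporter, was at 18.3, 27.5 and 27.2 CPM in WT and 20.4, 16.7 and 19.2 CPM in CREBH-KO and was not called (log2 fold change -0.37 ± 0.16 SE, adjusted p = 0.181). With 1 library left out its log2 fold change ran from -0.555 to -0.278. The adjusted p of edgeR's quasi-likelihood test then ran from 0.0139 to 0.446, so the outcome depended on the library left out. WT 1 was the lowest WT library for Tap1, Psmb8 and Psmb9, and also for Psmb10, H2-K1, H2-D1 and the 5 class II genes of the list. For B2m and Erap1 it was the highest. The list was divided into classes after its values were seen. Of 9 class I genes 4 fell, or 44.4%, beside 6.46% of all genes tested. Among these 9, 8 had negative values and the median was -0.37. Of 5 class II genes 4 had negative values, and the median was -0.18. Of these 5, 0 were called by edgeR's quasi-likelihood test, DESeq2 or limma-voom and 0 had an unadjusted p under 0.05. Class II genes were measured less precisely, with a median SE of 0.32 beside 0.11 for class I. Falls of similar size could therefore go uncalled among class II genes. The difference between the classes was not tested. Erap1, which trims peptides for class I, was not called (log2 fold change -0.32, adjusted p = 0.0573 in edgeR's quasi-likelihood test). It was called with DESeq2 and with edgeR robust, but not with limma-voom. With scaling by library size alone or by upper quartiles, 2 of the 4 calls remained and those of B2m and Nlrc5 were lost. With CREBH-KO 1 as the only CREBH-KO library 0 remained.

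Immune cells can carry immunoproteasome and class I transcripts, and their markers are given beside Psmb9. Ptprc, a marker of leukocytes, was higher, going from 2.49 ± 0.686 to 5.64 ± 0.831 CPM (log2 fold change 1.18, adjusted p = 0.0151 in edgeR's quasi-likelihood test). Of 6 markers of Kupffer cells and macrophages 0 were called by edgeR's quasi-likelihood test, with 1 unadjusted p under 0.05, that of Vsig4 (log2 fold change -0.79), which DESeq2 called. The summed level of the 6 was 60.6 to 136 CPM in WT and 67.6 to 84.0 CPM in CREBH-KO. Log2 fold changes were negative for 5 of the 6 and positive for 1, with a median of -0.36. Markers of T and NK cells summed to 0.905 to 2.47 CPM in WT and 1.72 to 2.93 CPM in CREBH-KO, and those of B cells to 1.27 to 4.36 and 2.87 to 3.85 CPM. Positive log2 fold changes were found for all 3 tested T and NK cell markers and for 3 of 4 B cell markers. No marker of these lists was at 0 in all libraries, and 0 of the 7 tested lymphocyte markers were called by edgeR, DESeq2 or limma-voom, with 0 unadjusted p under 0.05 in edgeR and DESeq2 and 1 in limma-voom. Of 4 endothelial markers 0 were called by these 3 tools and 2 had an unadjusted p under 0.05, with sums of 98.0 to 116 CPM in WT and 85.6 to 96.2 CPM in CREBH-KO. Negative log2 fold changes were found for 3 of these 4, with a median of -0.25. The part of these cells in the values of Psmb9 was not tested.

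**Figure D4:**
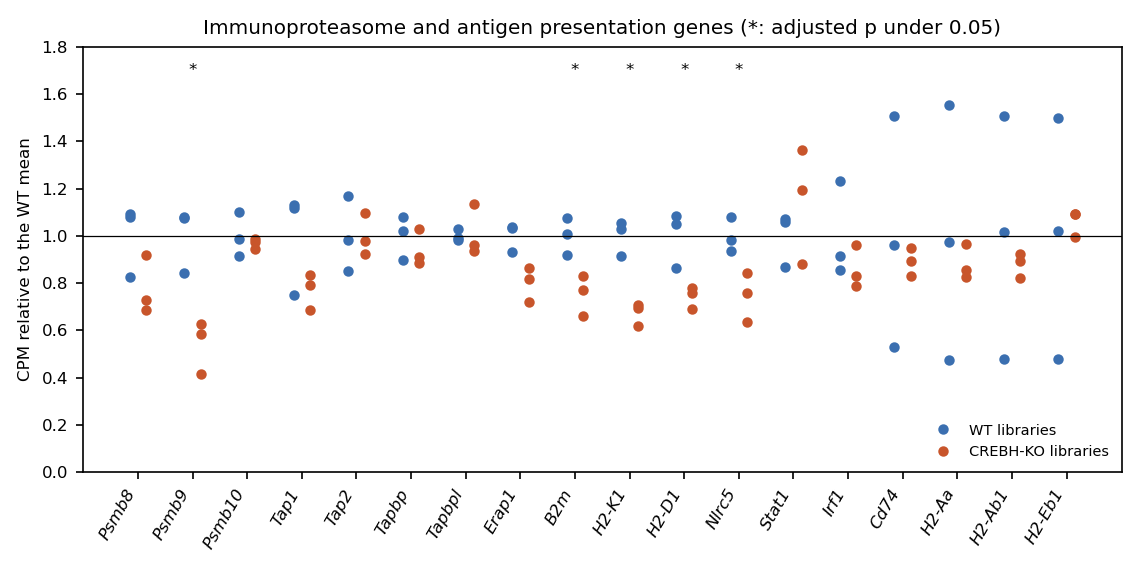
Level of each library relative to the WT mean of the gene, for the 3 immunoproteasome genes and 15 antigen presentation genes; an asterisk marks an adjusted p under 0.05 (Psmb9, B2m, H2-K1, H2-D1 and Nlrc5). All CREBH-KO points of these 5 genes lie below all WT points, and the class II genes on the right spread widely among the WT libraries.

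Assembly factors hold the parts of the proteasome together while it is built and then leave. Of 7 such genes, 1 fell and 6 were not called, and the median was -0.05. Psmd9, a chaperone that binds the ATPases Psmc3 and Psmc6 during assembly of the regulatory base, was the one that fell. Its level was 65.5, 80.8 and 89.3 CPM in WT 1, 2 and 3 and at 41.8, 45.1 and 40.7 CPM in CREBH-KO 1, 2 and 3. Every CREBH-KO library lay well below the lowest WT library, and the WT libraries were more spread. The fall was from 78.6 ± 12.1 to 42.5 ± 2.31 CPM (log2 fold change -0.89 ± 0.12 SE, adjusted p = 0.0022 in edgeR's quasi-likelihood test). The call held on leaving out any single library, with log2 fold changes of -1.01 to -0.79 and adjusted p of 3.86e-04 to 0.0145. With CREBH-KO 1 as the only CREBH-KO library the log2 fold change was -0.93 and the adjusted p 0.0701. The ATPases that it binds were not called, with log2 fold changes of 0.13 for Psmc3 and 0.09 for Psmc6.

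Psmd9 is annotated at chr5:123169413-123250131 on the plus strand. A noncoding transcript of the gene reaches far upstream into Hpd, an abundant liver gene of tyrosine breakdown on the opposite strand at chr5:123171807-123182727. Of the exonic bases of Psmd9, 25.5% lie antisense to other genes, Hpd among them. Hpd, looked at for this overlap after the values were seen, was at 2952, 3370 and 3705 CPM in WT and at 4008, 2483 and 2818 CPM in CREBH-KO. Its highest library was CREBH-KO 1, in which Psmd9 was as low as in the other CREBH-KO libraries (log2 fold change of Hpd -0.11 ± 0.17 SE, adjusted p = 0.750 in edgeR's quasi-likelihood test). Within WT, however, both genes rose from WT 1 to WT 3, with Psmd9 at 65.5, 80.8 and 89.3 CPM. The part of Hpd reads in the counts of Psmd9 was not tested. The sequence before the RefSeq start of Psmd9, which lies 58777 bases inside the annotated gene, is shown because it held matches to 2 of the 4 searched motifs. It is chr5:123227940-123228189 on the plus strand (GRCm38.p6). Capitals mark, in order, the interferon-stimulated response element core from 159 to 150 bases upstream and the antioxidant response element core TGACNNNGC from 31 to 23 bases upstream.
Psmd9 before the RefSeq start: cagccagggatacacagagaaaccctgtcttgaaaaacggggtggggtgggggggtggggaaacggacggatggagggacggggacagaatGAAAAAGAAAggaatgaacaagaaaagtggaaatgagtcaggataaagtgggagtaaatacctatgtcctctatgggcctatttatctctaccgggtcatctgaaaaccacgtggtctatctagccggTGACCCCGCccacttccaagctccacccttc

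The antioxidant response element is the site through which Nfe2l1 is known to raise proteasome genes when proteasomes are inhibited. In the RefSeq promoters of GRCm38.p6, 41 of the 49 proteasome genes had an entry, and 4 motifs were searched on both strands of the 250 bases upstream. The antioxidant response element core was found in 5 of 41 (Psmb5, Psmb6, Psmc6, Psmd9 and Psmd12), or 12.2%, beside 11.5% of 27025 genes. The cAMP response element core TGACGT, a motif of the wider family of factors to which CREBH belongs, was found in 4 of 41, or 9.76%, beside 7.29%. In Psmb5 the letters of both motifs overlap. The CCAAT box was found in 34.1% beside 37.5%, and the interferon-stimulated response element core in 3 of 41 (Psmb3, Psmd4 and Psmd9), or 7.32%, beside 3.46%. The window of Psma4 held no match to any of the 4, and none is in that of Psmb8. The RefSeq start of Psmb8 lies 474 bases inside the gene as GENCODE annotates it, so sequence before the GENCODE start was not searched. A match is a run of letters and was not compared with binding of any factor.

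The remaining assembly factors were not called. Psmg1 and Psmg2, a pair of chaperones that starts the alpha ring, had log2 fold changes of 0.21 ± 0.12 and 0.10 ± 0.14 SE. Psmg3 and Psmg4, the pair that joins them, had -0.16 ± 0.16 and -0.10 ± 0.18. Psmd5 and Psmd10, which chaperone other ATPases of the base, had 0.03 ± 0.08 and -0.05 ± 0.12. These 4 Psmg genes and Psmd10 were scarce, at 5.60 to 23.3 CPM in the group means, and their SE of 0.12 to 0.18 were above the median of 0.08 over the tested members.

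None of the 6 genes of other activators and the inhibitor was called by edgeR's quasi-likelihood test, by DESeq2 or by limma-voom, and 0 had an unadjusted p under 0.05. Psme1 and Psme2, the pair that forms the interferon-induced cap of the core, were at 92.5 ± 1.37 and 61.2 ± 1.41 CPM in WT and at 93.2 ± 5.48 and 60.7 ± 2.48 CPM in CREBH-KO, with log2 fold changes of 0.01 and -0.01. Their 95% intervals ran from -0.16 to 0.18 and from -0.17 to 0.16. Psme2b, a single-exon relative of Psme2 at chr11:48945354-48946190, had 0.18 ± 0.20 SE and matches 82.5% of the Psme2 transcript, so counts of both are uncertain. Psme3, the nuclear activator, had 0.07 ± 0.10 and Psme4, the large activator, -0.05 ± 0.08. Psmf1, which binds the core and is named as its inhibitor, was at 34.0, 30.8 and 29.4 CPM in WT and at 27.8, 28.0 and 26.8 CPM in CREBH-KO. Its groups did not overlap, but the difference was not called (log2 fold change -0.19 ± 0.09 SE, adjusted p = 0.210 in edgeR's quasi-likelihood test).

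Partners of the proteasome outside the naming rule were mostly not called either. Of 35 listed cofactors, regulators, shuttle factors and ubiquitin genes, 34 were matched and tested, 1 rose and 1 fell (5.88%, beside 10.4% of all genes), and their median was -0.02. Ublcp1, a phosphatase that acts on the proteasome, lies at chr11:44454571-44470498. It was at 27.6, 21.4 and 22.1 CPM in WT and at 11.9, 14.98 and 12.2 CPM in CREBH-KO. The groups were clearly apart (log2 fold change -0.87 ± 0.14 SE, adjusted p = 0.0052 in edgeR's quasi-likelihood test). The call held on leaving out any single library, with adjusted p of 0.0073 to 0.0281 by this test. It was lost with CREBH-KO 1 as the only CREBH-KO library. Rps27a, which encodes ubiquitin fused to a ribosomal protein, was at 169 ± 8.36 CPM in WT and rose to 213 ± 18.3 CPM in CREBH-KO (log2 fold change 0.33 ± 0.09 SE, adjusted p = 0.0423). Without WT 1, WT 2, WT 3, CREBH-KO 2 or CREBH-KO 3 its adjusted p was 0.0625 to 0.156.

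Pomp, the chaperone that matures the core, was at 103 ± 5.91 CPM in WT and 92.6 ± 2.46 CPM in CREBH-KO (log2 fold change -0.15 ± 0.08 SE, adjusted p = 0.259 in edgeR's quasi-likelihood test). Adrm1, a ubiquitin receptor of the regulatory particle, was at 123 ± 4.69 and 111 ± 4.49 CPM (-0.15 ± 0.07, adjusted p = 0.259). Neither was called, although their groups did not overlap. Sem1, the smallest subunit of the regulatory lid, had a log2 fold change of 0.02 ± 0.08 SE. Nfe2l1, the regulator of proteasome genes, was at 148 ± 5.09 CPM in WT and 143 ± 10.4 CPM in CREBH-KO, with -0.05 ± 0.08 SE (adjusted p = 0.770).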

How the data were processed

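For each library the authors deposited a table of raw counts per gene, made with HTSeq per the labels (sample titles). Not given in the sources used here are the aligner, the build, the HTSeq version and the strand setting. All 55536 identifiers matched GENCODE M21 (GRCm38), from which the build was inferred and symbols, types and positions were taken. HTSeq's closing lines for unassigned reads (27.4% to 31.2% of listed reads per library) were left out.

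In R 4.3.3, edgeR 4.0.16 kept 15589 genes by filterByExpr (minimum count 10, minimum total 15; 99.9% of counts), scaled libraries with TMM factors (0.967 to 1.05) and compared the genotypes by its quasi-likelihood test without covariates, two-sided, with Benjamini-Hochberg adjustment over all genes tested. The SE is the absolute log2 fold change divided by the root of the F statistic. The scripts were tested on simulated data. Called at an adjusted p under 0.05 were 1616 genes, 609 higher and 1007 lower; scaled by library size alone, 813 were higher and 726 lower. Replicates differed beyond sampling noise (chi-square per degree of freedom of 18.8 to 50.9). Copies of members were sought among GENCODE transcripts, over matches of at least 100 bases. Partner and antigen presentation genes, such as Rps27a, H2-K1 and H2-D1, were not searched for copies.

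Alternatives were other scalings, filters and tests (DESeq2 1.42.0, limma 3.58.1 with voom, edgeR robust), leaving out each library, and CREBH-KO 1 alone against WT. The coding-transcript length for ratios was added after seeing the data. Named were called members, immunoproteasome genes with their counterparts, the extremes of each role, all assembly, activator and inhibitor genes, members with low counts, called partner and antigen presentation genes, and Pomp, Adrm1, Sem1, Nfe2l1, Tap1 and B2m. Members and lists were chosen with earlier results of these data known. Of the partner list, Paaf1 matched no symbol. Psmc3ip, with 26 counts summed over WT and 30 over CREBH-KO, was not tested. Markers of stellate cells (1 of 4 called higher, Dcn) and of cholangiocytes (1 of 4 called higher, Sox9) were looked at as well. The cholangiocyte markers went both ways, with 2 positive and 2 negative log2 fold changes and a median of -0.16. Epcam had the lowest, at -1.11, and was not called. Of 5 hepatocyte markers 1, Apob, was called lower.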

Additional observations from a re-analysis of the deposited data

How the results depend on the processing

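The same 3 proteasome genes were called with DESeq2, limma-voom, edgeR robust, no filter, a minimum count of 50, both other scalings and without WT 1. Leaving out 1 library at a time gave 0 to 1 higher and 1 to 2 lower members, 0 to 2 higher partner genes, 1 to 3 lower antigen presentation genes and 658 to 1806 called genes in all. With CREBH-KO 1 alone, members, partners and antigen presentation genes gave 0 calls in either direction, and 228 genes were called in all. Without a filter, 2456 genes and 2 higher partners were called. Scaling by library size alone or by upper quartiles gave 2 lower antigen presentation genes.

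Scaling by library size alone moved the median log2 fold changes to 0.075 for activators and the inhibitor, 0.026 for assembly factors, 0.178 for ATPases, 0.120 for the 7 alpha genes without Psma8 (0.048 with TMM), 0.042 for beta genes, 0.148 for non-ATPase subunits and 0.145 for the 31 constitutive subunits. With 1 library left out, the median was -0.124 to 0.016 for assembly factors and -0.023 to 0.128 for these 7 alpha genes. With CREBH-KO 1 alone it was -0.143 for the immunoproteasome, and the log2 ratio of Psmb8 to Psmb5 turned to 0.127.

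Some small, uncalled log2 fold changes changed sign. With library size alone they were 0.030 for Psmb10, 0.067 for Psmc4, 0.026 for Psmd10, 0.064 for Psme2, 0.023 for Psme4 and 0.029 for Nfe2l1. Upper quartiles gave 0.028 for Psmc4 and 0.026 for Psme2; no filter gave -0.011 for Psme1 and -0.006 for Sem1; limma-voom gave 0.269 for Psma8. CREBH-KO 1 alone gave 0.072 for Psmd10, -0.033 for Psmd5, 0.031 for Psme2, -0.139 for Psme3, -0.003 for Psmg1, 0.041 for Psmg4 and -0.032 for Sem1. With 1 library left out, uncalled members ran from -0.575 to 1.236 for Psma8, -0.117 to 0.027 for Psmb10, -0.030 to 0.009 for Psmc4, -0.124 to 0.015 for Psmd10, -0.015 to 0.059 for Psme1, -0.044 to 0.014 for Psme2, -0.011 to 0.149 for Psme3 and -0.199 to 0.016 for Psmg4. Of the partners, Nfe2l1 ran from -0.084 to 0.011 and Sem1 from -0.019 to 0.040. The cause of these shifts was not tested. Psma8, at 77 and 62 counts per group, had an SE of 0.69, the widest among the members.

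No paired analysis was possible because the library numbers in the labels are shared by no pair of samples and no litter, batch or day is given.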
